A study of Homo sapiens with 24 samples.

Results

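The subunits of the oxidative phosphorylation machinery were examined in SKBR3 cells after knockdown of PMCA2, NHERF1 or HER2. The members were the genes whose platform symbols name a subunit of complexes I to V (NDUFA, NDUFB, NDUFC, NDUFS and NDUFV symbols without the NDUFAF assembly factors, SDHA to SDHD, UQCR, COX4 to COX8 without COX7B2, and ATP5F, ATP5M and ATP5P), with pseudogenes left out. The rule reads gene symbols and no measured value. It gave 80 of the 20046 genes named on the array: 36 of complex I, 3 of complex II, 8 of complex III, 16 of complex IV and 17 of complex V. Each gene was read by the probe with the highest mean over the 24 arrays. SDHB and UQCRFS1 are not analysed here, and NDUFA4 is listed under the symbol COXFA4 and so fell outside the rule.

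Oxidative phosphorylation takes place in the inner mitochondrial membrane. Complex I takes electrons from NADH and complex II from succinate, both hand them to coenzyme Q, complex III passes them on to cytochrome c, and complex IV gives them to oxygen. Complexes I, III and IV pump protons as they do so, and complex V, the ATP synthase, lets the protons flow back through its rotor to make ATP. Most subunits are encoded in the nucleus and imported, while a few hydrophobic core subunits are encoded by the mitochondrial DNA.

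SKBR3 is a human breast cancer line with amplification of ERBB2, the gene of HER2. The 3 knockdown groups received lentiviral shRNA particles for 48 h, aimed at PMCA2 (the plasma membrane calcium pump encoded by ATP2B2), at the PDZ scaffold NHERF1, or at HER2. The control cells share the line and the protocol, but their label names no hairpin, so a non-targeting hairpin is not stated. Each group was measured on 6 Illumina arrays, 3 on each of 2 chips. The design text calls the arrays of a group duplicates and no label names separate cultures, so every p-value below measures the spread between arrays, which may be technical. Each group has its own positions on the chips, which cannot be told apart from the group.

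The number of arrays limits the precision. The median standard error of a difference between group means was 0.050 on the log2 scale for the members and 0.069 over all genes tested. NHERF1 mRNA stood at 54.1%, 8.10% and 62.9% of its control level in PMCA2, NHERF1 and HER2 knockdown cells, and ERBB2 mRNA at 50.9%, 31.5% and 53.3%. ATP2B2 was above the background floor on 1 of 24 arrays, so loss of the PMCA2 message could not be checked. Control arrays stood apart from all knockdown arrays, with a median correlation across genes of 0.918 between knockdown and control arrays, 0.973 between arrays of different knockdowns and 0.996 within a group. Against control, 67.0%, 66.7% and 67.2% of all genes tested passed the test in PMCA2, NHERF1 and HER2 knockdown cells, so a count of members has to be read beside the share of all genes that passed in the same direction.

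Of the 80 members, 73 were above the background floor on at least 6 arrays and were tested among 12444 genes, and 72 of these were above it on all 24 arrays. The exception was NDUFB4, above the floor on 5 PMCA2, 5 NHERF1, 4 HER2 knockdown and 6 control arrays. The members not tested were NDUFA5 and NDUFS6 of complex I and COX4I2, COX6A2, COX6B2, COX7A1 and COX8C of complex IV. The array had no probe under the symbol of any of the 13 mitochondrially encoded subunits, so all values concern the nuclear genes.

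Promoter sequences are given for the 6 members that differed at least 1.5-fold from control in a knockdown, with ATP5PB and COX7A2L as members that stood above control or in opposite directions. They are the 120 bases before the RefSeq transcription start (GRCh38.p14), at chr19:54102735-54102854 for NDUFA3, chr12:4648994-4649113 for NDUFA9, chr5:218200-218319 for SDHA, chr22:29767249-29767368 for UQCR10 and chr1:111449344-111449463 for ATP5PB on the plus strand, and at chr2:206159445-206159564 for NDUFS1, chr3:48609647-48609766 for UQCRC1 and chr2:42361218-42361337 for COX7A2L on the minus strand. Capitals mark the motif of NRF1, nuclear respiratory factor 1, which is known to bind promoters of respiratory chain genes.
NDUFA3: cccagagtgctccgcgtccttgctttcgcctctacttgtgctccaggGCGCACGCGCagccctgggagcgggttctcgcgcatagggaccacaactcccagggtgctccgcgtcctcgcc
NDUFA9: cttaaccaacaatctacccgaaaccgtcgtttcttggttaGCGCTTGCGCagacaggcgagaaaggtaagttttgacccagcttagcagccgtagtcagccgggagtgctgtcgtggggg
NDUFS1: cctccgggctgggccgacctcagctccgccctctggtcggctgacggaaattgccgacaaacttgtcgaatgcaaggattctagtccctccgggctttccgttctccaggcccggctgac
SDHA: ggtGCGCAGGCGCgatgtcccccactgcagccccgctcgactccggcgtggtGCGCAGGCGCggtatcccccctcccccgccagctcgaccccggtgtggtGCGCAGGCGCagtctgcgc
UQCR10: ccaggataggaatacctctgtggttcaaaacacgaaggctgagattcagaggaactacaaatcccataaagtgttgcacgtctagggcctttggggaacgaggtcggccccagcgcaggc
UQCRC1: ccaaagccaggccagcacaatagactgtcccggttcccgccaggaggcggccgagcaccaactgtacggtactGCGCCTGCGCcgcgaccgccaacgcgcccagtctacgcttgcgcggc
ATP5PB: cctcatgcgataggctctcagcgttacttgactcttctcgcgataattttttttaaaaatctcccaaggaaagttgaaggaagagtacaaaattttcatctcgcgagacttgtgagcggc
COX7A2L: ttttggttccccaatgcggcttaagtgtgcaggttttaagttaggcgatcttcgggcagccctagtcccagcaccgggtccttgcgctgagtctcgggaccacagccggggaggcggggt

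RefSeq promoters of 300 bases, 250 before and 50 after the start, were matched for 66 of the 80 members, and 3 motifs were searched on both strands. The NRF1 motif, GCGCA and GCGC with any base between them, stood in 16 of the 66 (24.2%), against 6.28% of all 27305 promoters of the same length. The core motif of ETS family factors, CCGGAAG, stood in 28.8% of the member promoters and 10.7% of all promoters, and the YY1 motif, AAGATGGC, in 15.2% and 3.03%. In SDHA the NRF1 motif occurred 4 times, 3 of them in the stretch above with first bases at -117, -68 and -19 from the start. NDUFA9 and UQCRC1 carried it on the minus strand, and in UQCR10 it began at -8 and ran past the start. NDUFS1 had an ETS motif at -157, outside the printed stretch. The YY1 motif began at -2 in ATP5PB, on the minus strand, and ran past the start. In NDUFA3, NDUFA9 and UQCRC1 it lay after the start, with first bases at 22, 11 and 24. Of the tested members with a promoter, 10 of the 15 with the NRF1 motif and 30 of the 46 without it were lower in PMCA2 knockdown cells than in control cells. The corresponding counts were 8 of 15 and 24 of 46 in NHERF1 knockdown cells, and 6 of 15 and 23 of 46 in HER2 knockdown cells. In the same order of knockdowns, 8, 6 and 6 of 10 with the YY1 motif and 32, 26 and 23 of 51 without it were lower. With the ETS motif 10, 9 and 9 of 19 were lower, and without it 30, 23 and 20 of 42. Of all genes tested, 33.1%, 30.9% and 31.8% were lower. A match is a stretch of letters and was not tested as a binding site.

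In each of the 5 complexes more subunit mRNAs were lower than higher in each knockdown against control cells, by small amounts. The share lower was near that of all genes for complex III in NHERF1 (37.5%) and complex V in HER2 knockdown cells (35.3%). In complex II, with 3 tested genes, only SDHA was lower in HER2 knockdown cells. In PMCA2 knockdown cells 49 of the 73 tested members (67.1%) were lower and 5 (6.85%) were higher than in control cells at an adjusted p under 0.05 (limma, Benjamini-Hochberg over all genes tested), where 33.1% of all genes were lower and 33.9% higher. In NHERF1 knockdown cells 40 (54.8%) were lower and 3 (4.11%) higher, against 30.9% and 35.7% of all genes. In HER2 knockdown cells 36 (49.3%) were lower and 7 (9.59%) higher, against 31.8% and 35.4% of all genes. The median log2 difference of the tested members from control was -0.22, -0.15 and -0.11 for the PMCA2, NHERF1 and HER2 knockdowns, while that of all genes tested was 0.0024, 0.022 and 0.022. As a fold, the members' medians were 1.16, 1.11 and 1.08 lower than control. The 3 comparisons share the control arrays and are not independent of each other.

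**Figure D1:**
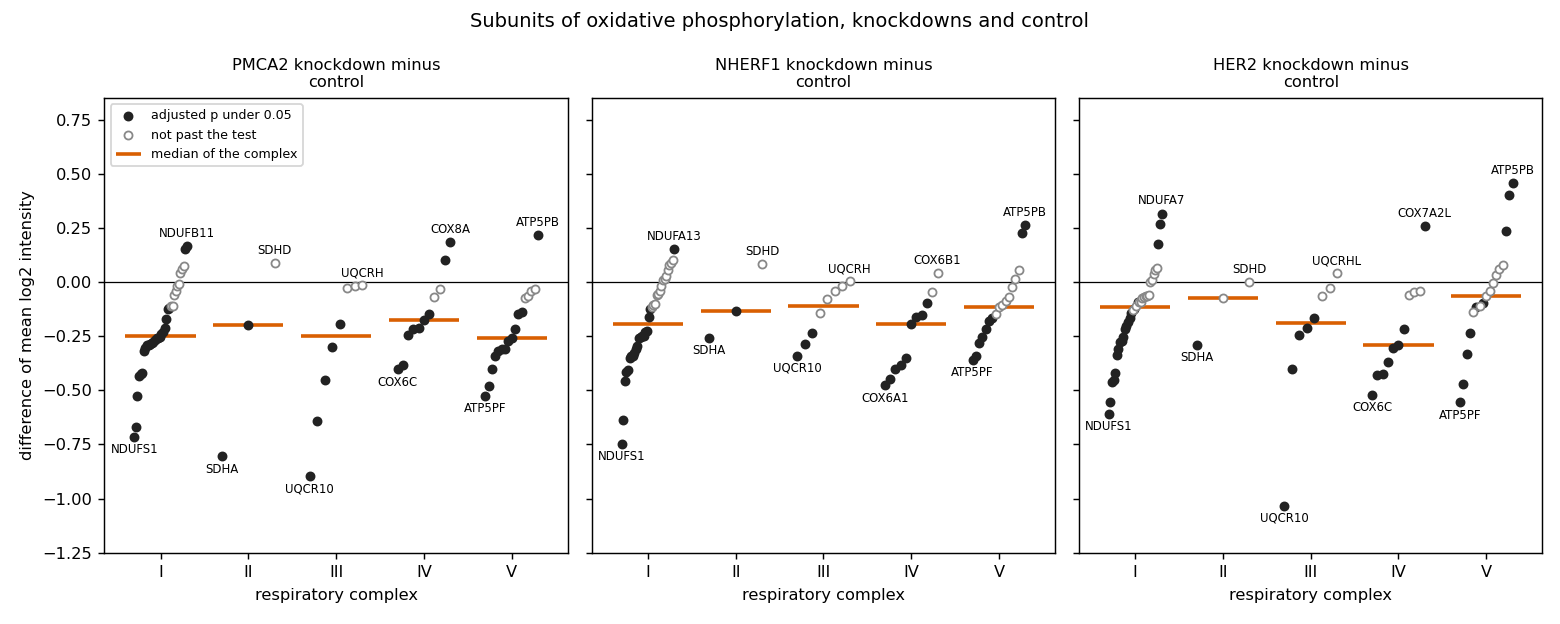
Each point is 1 tested subunit gene, placed by complex (horizontal axis, I to V) and by the difference of mean log2 intensity between a knockdown and control (vertical axis, n = 6 arrays each), with filled points past the limma test and orange bars at the median of the complex. All 5 medians lie below 0 in each of the 3 panels, and UQCR10, SDHA and NDUFS1 reach furthest down in the PMCA2 panel.

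The arrays of many members did not overlap control. All 6 PMCA2 knockdown arrays were below all 6 control arrays for 35 members (47.9%, against 24.4% of all genes) and above them for 2, where 24.8% of all genes were. For the NHERF1 knockdown 37 members lay wholly below control (50.7%, against 23.3% of all genes) and 2 wholly above (against 26.7% of all genes), and for the HER2 knockdown 24 lay wholly below (32.9%, against 23.9%) and 6 wholly above (against 25.3%). Changes of at least 1.5-fold were few: 5 members were lower by that much in PMCA2 knockdown cells, 2 in NHERF1 and 2 in HER2 knockdown cells, where 12.9%, 13.1% and 13.6% of all genes were. No member was higher by 1.5-fold in PMCA2, NHERF1 or HER2 knockdown cells, where 13.6%, 13.3% and 13.4% of all genes were. Per array, the median difference of the 73 members from the control means lay between -0.22 and -0.17 on the PMCA2 knockdown arrays, -0.24 and -0.13 on the NHERF1, -0.17 and -0.084 on the HER2 knockdown arrays, and -0.046 and 0.028 on the control arrays.

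The direction held on both chips. With chip 1 alone 39, 29 and 26 members were lower than control in PMCA2, NHERF1 and HER2 knockdown cells, where 27.7%, 25.7% and 27.1% of all genes were. With chip 2 alone 41, 35 and 29 were, against 28.6%, 27.1% and 28.2% of all genes. All 54, 43 and 43 members called in either direction in the 3 comparisons had the same sign on the 2 chips. The calls were made on both chips together, which favours members that agree between them, so this is no independent check. The members are brightly read genes, with 30 of 73 at a mean log2 intensity from 10 to 12, where 1193 of 12444 genes were, and 26 above 12, where 305 genes were. Of the 1193 genes, 36.4% were lower in PMCA2 knockdown cells than in control cells and the median difference was 0.021, while 22 of the 30 members in that range were lower, with a median of -0.26. In NHERF1 and HER2 knockdown cells 20 and 13 of the 30 members were lower, against 32.1% and 34.8% of the 1193 genes. Of the 26 members above 12, 14, 12 and 16 were lower in PMCA2, NHERF1 and HER2 knockdown cells, against 33.4%, 28.2% and 38.0% of the 305 genes.

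The cells were bulk cultures, so fewer cells of a type and less RNA per cell cannot be told apart. Marker counts have to be read beside the shares of all genes against control in PMCA2, NHERF1 and HER2 knockdown cells. These were 33.1%, 30.9% and 31.8% lower and 33.9%, 35.7% and 35.4% higher. Of 19 tested luminal epithelial markers, 13, 12 and 12 were lower and 4, 6 and 6 higher in PMCA2, NHERF1 and HER2 knockdown cells than in control cells, and the summed intensity of the 20 luminal markers was 30772 to 31590 on PMCA2, 24266 to 25120 on NHERF1 and 29331 to 30938 on HER2 knockdown arrays, against 54961 to 59238 on control arrays. The luminal counts and sum include ERBB2, the target of the HER2 knockdown, which stood at 50.9%, 31.5% and 53.3% of its control level. CDH1 was above the floor in no group, control cells included, and SPDEF, TFF3 and AZGP1 in no knockdown group. Trophoblast markers were higher for 10, 9 and 8 and lower for 1, 2 and 3 of 11 tested genes, with summed intensities of 6919 to 7641, 4745 to 5255 and 3398 to 3876, against 3024 to 3398 in control cells. Basal and mesenchymal markers were higher for 3, 4 and 4 and lower for 2, 0 and 0 of 6, with sums of 627 to 692, 2653 to 2856 and 956 to 1088, against 517 to 575, and KRT14 and ZEB1 were above the floor in no group. Fibroblast, immune and endothelial markers summed to at most 308, 407 and 262 on any array. In PMCA2, NHERF1 and HER2 knockdown cells 2, 2 and 1 of 3 tested fibroblast markers were higher than in control cells and none lower. Of 3 immune markers 2, 1 and 1 were higher and 0, 1 and 1 lower, and of 2 endothelial markers 1, 2 and 1 higher and 0, 0 and 1 lower. Lists of 2 or 3 tested genes are too short to set against the shares of all genes. LUM, THY1, FAP and NKG7 were above the floor in no group, and PTPRC and PECAM1 in no knockdown group. Their part in the subunit values was not tested.

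Complex I, the NADH dehydrogenase, is an L-shaped assembly with a matrix arm that carries the electrons and a membrane arm that pumps protons. Its 34 tested subunits were lower than control for 23, 19 and 17 genes in PMCA2, NHERF1 and HER2 knockdown cells and higher for 2, 1 and 3, with median log2 differences of -0.25, -0.19 and -0.12. The shares lower were 67.6% and 55.9% in PMCA2 and NHERF1 knockdown cells, and 17 of 34 members were lower in HER2 knockdown cells, against 33.1%, 30.9% and 31.8% of all genes. Without background correction the median of complex I in NHERF1 knockdown cells was -0.12. The 6 tested catalytic core subunits (NDUFS1, NDUFS3, NDUFS7, NDUFS8, NDUFV1 and NDUFV2), of which most hold the flavin or iron-sulfur clusters, were lower for 6, 4 and 5 genes and higher for none, with medians of -0.38, -0.24 and -0.18. The 7 accessory subunits of the matrix arm were lower for 5, 3 and 2 and higher for 1, 0 and 2. The 21 accessory subunits of the membrane arm were lower for 12, 12 and 10 and higher for 1 each.

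NDUFS1, an iron-sulfur subunit of the matrix arm, read lower in all 3 knockdowns. Its log2 intensities (lowest, median and highest of 6 arrays, as for all members below) were 5.45, 5.77 and 5.87 in PMCA2 knockdown cells, 5.44, 5.73 and 5.84 in NHERF1 knockdown cells, 5.50, 5.86 and 6.00 in HER2 knockdown cells, against 6.30, 6.45 and 6.55 in control cells. All knockdown arrays lay below all control arrays, and the knockdowns overlapped each other. Levels were 1.64-fold, 1.68-fold and 1.52-fold lower in PMCA2, NHERF1 and HER2 knockdown cells than in control cells (log2 -0.72, -0.75 and -0.61, SE 0.086, limma adjusted p = 3.24e-08, 1.52e-08 and 5.04e-07). The probe is dim, and its difference depends on the background step: without background correction the log2 differences of NDUFS1 were -0.32, -0.34 and -0.28 in PMCA2, NHERF1 and HER2 knockdown cells.

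NDUFA9, an accessory subunit at the joint of the matrix and membrane arms, separated the knockdowns. Its log2 intensities were 9.94, 10.01 and 10.17 in PMCA2 knockdown cells, 10.27, 10.36 and 10.47 in NHERF1 knockdown cells, 10.60, 10.70 and 10.82 in HER2 knockdown cells, against 10.60, 10.70 and 10.79 in control cells. PMCA2 knockdown arrays were lowest and NHERF1 knockdown arrays lay between them and control without overlap, while HER2 knockdown and control arrays overlapped. NDUFA9 was 1.59-fold lower in PMCA2 knockdown cells (log2 -0.67 with SE 0.049, limma adjusted p = 2.32e-12) and 1.26-fold lower in NHERF1 knockdown cells (adjusted p = 1.36e-06) than in control cells, and the log2 difference of the HER2 knockdown was 0.0084 (adjusted p = 0.893).

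NDUFA3, a small subunit of the membrane arm, had another order. Its log2 intensities were 12.25, 12.27 and 12.30 in PMCA2 knockdown cells, 11.74, 11.84 and 11.96 in NHERF1 knockdown cells, 11.86, 11.92 and 12.04 in HER2 knockdown cells, against 12.47, 12.48 and 12.51 in control cells. Control arrays were highest, PMCA2 knockdown arrays stood just below them, and NHERF1 and HER2 knockdown arrays overlapped each other further down. NDUFA3 was 1.16-fold, 1.55-fold and 1.47-fold lower in PMCA2, NHERF1 and HER2 knockdown cells than in control cells (log2 -0.21, -0.64 and -0.55, SE 0.042, limma adjusted p = 6.85e-05, 1.9e-13 and 3.57e-12).

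NDUFS3, a core subunit of the matrix arm, had log2 intensities of 11.27, 11.30 and 11.45 in PMCA2 knockdown cells, 11.55, 11.60 and 11.63 in NHERF1 knockdown cells, 11.30, 11.42 and 11.47 in HER2 knockdown cells, against 11.80, 11.85 and 11.94 in control cells. Control arrays were highest, NHERF1 knockdown arrays came next, and PMCA2 and HER2 knockdown arrays overlapped at the bottom. The log2 differences from control were -0.53, -0.26 and -0.45 (SE 0.041, limma adjusted p = 8.35e-12, 4.15e-06 and 1.89e-10). NDUFB5, a membrane arm subunit, had log2 intensities of 11.77, 11.87 and 11.95 in PMCA2 knockdown cells, 11.72, 11.84 and 11.92 in NHERF1 knockdown cells, 11.79, 11.82 and 11.89 in HER2 knockdown cells, against 12.23, 12.27 and 12.39 in control cells. The 3 knockdowns overlapped each other and lay wholly below control, at 74.4%, 72.9% and 72.7% of its level (limma adjusted p = 2.47e-09, 7.12e-10 and 5.66e-10). The members of complex I that were higher than control by the test reached at most log2 0.17 in PMCA2 knockdown cells (NDUFB11), 0.15 in NHERF1 knockdown cells (NDUFA13) and 0.32 in HER2 knockdown cells (NDUFA7), and these 3 were singled out after their values were seen.

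Complex II, succinate dehydrogenase, is both a respiratory complex and an enzyme of the citric acid cycle, and has no mitochondrially encoded subunit. Of its 3 tested subunits 2, 2 and 1 were lower than control in PMCA2, NHERF1 and HER2 knockdown cells and none was higher. Of all genes 33.1%, 30.9% and 31.8% were lower, but 3 genes are too few to set against these shares. SDHA, the flavoprotein that oxidises succinate, had log2 intensities of 9.89, 9.96 and 10.05 in PMCA2 knockdown cells, 10.39, 10.52 and 10.57 in NHERF1 knockdown cells, 10.39, 10.45 and 10.68 in HER2 knockdown cells, against 10.71, 10.76 and 10.82 in control cells. PMCA2 knockdown arrays lay below all others, NHERF1 and HER2 knockdown arrays overlapped in the middle, and control arrays were highest. SDHA was 1.75-fold lower in PMCA2 knockdown cells than in control cells (log2 -0.80 with SE 0.048, limma adjusted p = 2.04e-14), and 1.19-fold and 1.22-fold lower in NHERF1 and HER2 knockdown cells (adjusted p = 3.18e-05 and 5.18e-06). A further SDHA probe gave log2 differences of -0.86, -0.12 and -0.30. The genome holds near copies of SDHA that its probes may also read. The probes listed under the copies SDHAP1, SDHAP2 and SDHAP3 had log2 differences of 0.049, -0.015 and 0.23 in PMCA2 knockdown cells, -0.028, -0.13 and 0.61 in NHERF1 knockdown cells, and -0.099, -0.082 and 0.50 in HER2 knockdown cells.

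SDHC and SDHD anchor the complex in the membrane and hold the coenzyme Q site. SDHC had log2 intensities of 10.45, 10.56 and 10.62 in PMCA2 knockdown cells, 10.50, 10.65 and 10.68 in NHERF1 knockdown cells, 10.58, 10.68 and 10.80 in HER2 knockdown cells, against 10.68, 10.75 and 10.86 in control cells. It was lower in PMCA2 and NHERF1 knockdown cells, at 87.2% and 91.2% of the level in control cells (log2 -0.20 and -0.13, SE 0.046, limma adjusted p = 0.000495 and 0.0138), and the HER2 knockdown did not pass (log2 -0.073, adjusted p = 0.173). A second, dimmer SDHC probe differed more, with log2 values of -0.63, -0.54 and -0.61. SDHD had log2 intensities of 9.85, 9.97 and 10.14 in PMCA2 knockdown cells, 9.86, 9.99 and 10.02 in NHERF1 knockdown cells, 9.66, 9.87 and 10.13 in HER2 knockdown cells, against 9.76, 9.89 and 9.99 in control cells. All 4 groups overlapped, and its log2 differences of 0.09, 0.085 and -0.0016 did not pass the test (adjusted p = 0.217, 0.241 and 0.985).

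Complex III, the cytochrome bc1 complex, takes electrons from coenzyme Q to cytochrome c. Of its 8 tested subunits 5, 3 and 5 were lower in PMCA2, NHERF1 and HER2 knockdown cells than in control cells and none was higher, with median log2 differences of -0.25, -0.11 and -0.19. The shares lower were 62.5%, 37.5% and 62.5%, against 33.1%, 30.9% and 31.8% of all genes, so that of the NHERF1 knockdown was near the background. Its core proteins face the matrix. The core protein UQCRC1 had log2 intensities of 10.10, 10.34 and 10.44 in PMCA2 knockdown cells, 10.59, 10.72 and 10.81 in NHERF1 knockdown cells, 10.67, 10.69 and 10.75 in HER2 knockdown cells, against 10.83, 10.94 and 11.06 in control cells. PMCA2 knockdown arrays lay below all others, and NHERF1 and HER2 knockdown arrays overlapped each other below control. UQCRC1 was 1.56-fold, 1.18-fold and 1.19-fold lower than in control cells (log2 -0.64, -0.23 and -0.25, SE 0.053, limma adjusted p = 2.1e-11, 0.000299 and 0.00017). The second core protein, UQCRC2, had log2 intensities of 8.71, 8.95 and 9.03 in PMCA2 knockdown cells, 9.07, 9.20 and 9.57 in NHERF1 knockdown cells, 8.94, 9.14 and 9.46 in HER2 knockdown cells, against 9.22, 9.40 and 9.47 in control cells. It was 1.37-fold lower in PMCA2 knockdown cells (limma adjusted p = 1.75e-05) and 1.16-fold lower in HER2 knockdown cells (adjusted p = 0.0226) than in control cells, and the NHERF1 knockdown did not pass (log2 -0.14, adjusted p = 0.12). The HER2 call of UQCRC2 was lost without HER2 knockdown replicate 5 (log2 -0.16), and the NHERF1 knockdown passed without its replicate 1 (log2 -0.21).

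UQCR10, a small subunit that spans the membrane next to the Rieske protein, had the largest difference of any member in PMCA2 and HER2 knockdown cells. Its log2 intensities were 8.40, 8.61 and 8.79 in PMCA2 knockdown cells, 9.07, 9.18 and 9.30 in NHERF1 knockdown cells, 8.45, 8.47 and 8.55 in HER2 knockdown cells, against 9.42, 9.49 and 9.70 in control cells. PMCA2 and HER2 knockdown arrays overlapped at the bottom, NHERF1 knockdown arrays lay above them and control arrays above all. UQCR10 was 1.86-fold, 1.27-fold and 2.05-fold lower in PMCA2, NHERF1 and HER2 knockdown cells than in control cells (log2 -0.90, -0.34 and -1.03, SE 0.061, limma adjusted p = 4.78e-13, 2.12e-05 and 2.24e-14). This size belonged to 1 probe. The platform lists it for one RefSeq transcript of the gene, and the 2 further probes, listed for another, gave log2 differences of -0.37 and -0.30 in PMCA2, -0.042 and -0.0055 in NHERF1, and -0.18 and -0.088 in HER2 knockdown cells.

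UQCRB, a small subunit next to the coenzyme Q site, had log2 intensities of 8.39, 8.60 and 8.81 in PMCA2 knockdown cells, 8.33, 8.51 and 8.67 in NHERF1 knockdown cells, 8.29, 8.38 and 8.49 in HER2 knockdown cells, against 8.64, 8.76 and 9.02 in control cells. It was 1.14-fold, 1.22-fold and 1.32-fold lower than in control cells (limma adjusted p = 0.0195, 0.000953 and 2.05e-05), and wholly below control on the HER2 knockdown arrays. The PMCA2 call of UQCRB was lost without PMCA2 knockdown replicate 6 or control replicate 4 (log2 -0.15 each). Its 2 further probes lay near the floor of 106, with mean deposited intensities of 107.9 and 102.8, and were above it on 15 and 6 of 24 arrays, so they could not show a lower level. A copy, UQCRBP1, whose transcripts the probes may also read, had log2 differences of -0.062, -0.37 and -0.25. UQCRH, the hinge protein, and its near-identical relative UQCRHL, which probes may not tell apart, overlapped control in every knockdown and passed no test (log2 -0.014, 0.0032 and -0.029 for UQCRH, and -0.026, -0.042 and 0.040 for UQCRHL).

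Complex IV, cytochrome c oxidase, has a mitochondrially encoded core wrapped in nuclear subunits. Of its 11 tested subunits 7, 9 and 7 were lower in PMCA2, NHERF1 and HER2 knockdown cells than in control cells and 2, 0 and 1 higher. The shares lower were 63.6%, 81.8% and 63.6%, against 33.1%, 30.9% and 31.8% of all genes. The median log2 differences were -0.17, -0.19 and -0.29, so that of the 5 complexes only this one had its lowest median in HER2 knockdown cells. With the 5 isoforms below the floor included, the medians of complex IV were -0.069, -0.13 and -0.064, and that order no longer held. COX6A1, the ubiquitous form of subunit VIa, had log2 intensities of 10.95, 11.00 and 11.08 in PMCA2 knockdown cells, 10.83, 10.86 and 11.05 in NHERF1 knockdown cells, 10.90, 10.96 and 11.05 in HER2 knockdown cells, against 11.24, 11.42 and 11.43 in control cells. All knockdown arrays lay below all control arrays, at 76.7%, 71.8% and 74.6% of the control level (limma adjusted p = 4.56e-08, 7.85e-10 and 7.54e-09). COX6C, another transmembrane subunit, had log2 intensities of 12.56, 12.63 and 12.76 in PMCA2 knockdown cells, 12.45, 12.65 and 12.78 in NHERF1 knockdown cells, 12.31, 12.50 and 12.73 in HER2 knockdown cells, against 13.00, 13.01 and 13.13 in control cells. It too lay wholly below control in each knockdown, by log2 -0.40, -0.38 and -0.52 (SE 0.060, limma adjusted p = 1.26e-06, 2.62e-06 and 1.59e-08).

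COX5A, which sits on the matrix side, had log2 intensities of 12.30, 12.38 and 12.45 in PMCA2 knockdown cells, 12.15, 12.31 and 12.35 in NHERF1 knockdown cells, 11.92, 12.01 and 12.12 in HER2 knockdown cells, against 12.37, 12.42 and 12.56 in control cells. HER2 knockdown arrays lay below all others and PMCA2 knockdown arrays overlapped control. COX5A was 1.35-fold lower in HER2 knockdown cells (limma adjusted p = 1.03e-08) and 1.12-fold lower in NHERF1 knockdown cells (adjusted p = 0.00479) than in control cells, and the PMCA2 knockdown did not pass (log2 -0.068, adjusted p = 0.223). COX5B, the zinc-binding matrix subunit, had log2 intensities of 12.88, 13.05 and 13.11 in PMCA2 knockdown cells, 12.87, 12.90 and 13.00 in NHERF1 knockdown cells, 12.85, 12.96 and 13.07 in HER2 knockdown cells, against 13.16, 13.28 and 13.32 in control cells. Every knockdown array lay below every control array, by log2 -0.24, -0.35 and -0.31 in the means (limma adjusted p = 6.27e-05, 3.1e-07 and 2.74e-06).

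COX7A2L, a relative of subunit VIIa known for joining complexes III and IV into supercomplexes, moved in opposite directions. Its log2 intensities were 11.14, 11.24 and 11.26 in PMCA2 knockdown cells, 10.60, 10.65 and 10.76 in NHERF1 knockdown cells, 11.26, 11.38 and 11.49 in HER2 knockdown cells, against 11.06, 11.11 and 11.17 in control cells. NHERF1 knockdown arrays lay below all others, HER2 knockdown arrays above all control arrays, and PMCA2 knockdown arrays overlapped control and HER2 knockdown. COX7A2L was 1.36-fold lower in NHERF1 knockdown cells (log2 -0.45 with SE 0.043, limma adjusted p = 5.5e-10) and 1.19-fold higher in HER2 knockdown cells (log2 0.26, adjusted p = 7.35e-06) than in control cells. In PMCA2 knockdown cells it was 1.07-fold higher (adjusted p = 0.0383), a call that was lost without any 1 of 7 arrays (PMCA2 knockdown replicates 2, 3, 4 and 6, and control replicates 1, 4 and 5), on each chip alone and with centred arrays.

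**Figure D2:**
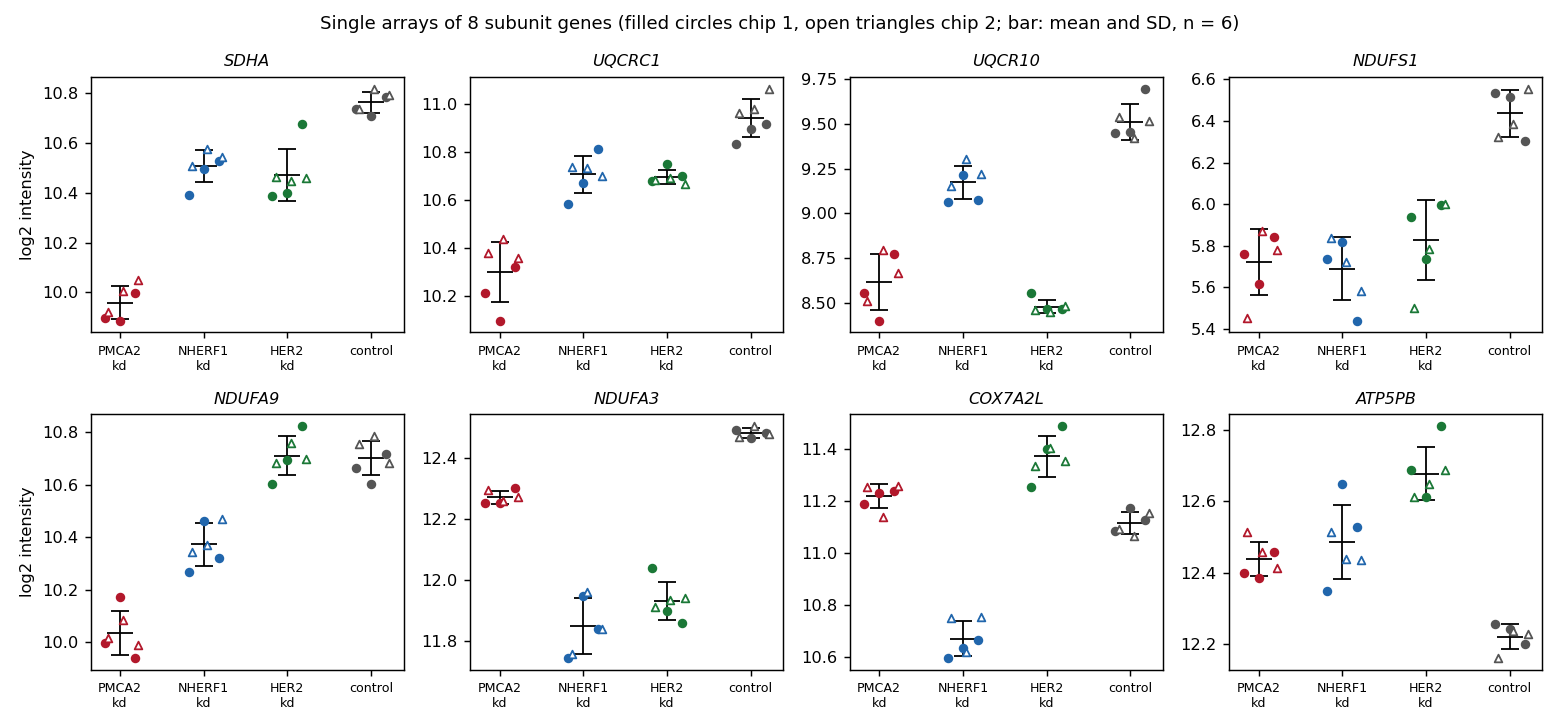
Log2 intensity (vertical axes) on each of the 24 arrays by group (horizontal axes) for 8 subunit genes, with filled circles for chip 1, open triangles for chip 2, and bars at the mean and SD of 6 arrays. For COX7A2L the NHERF1 knockdown arrays lie at 10.60 to 10.76, below all others, and for NDUFA9 the HER2 knockdown arrays overlap control while PMCA2 knockdown arrays lie at 9.94 to 10.17.

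Several subunits of complex IV have tissue-specific isoforms. The muscle forms COX6A2 and COX7A1, the testis forms COX6B2 and COX8C and the lung form COX4I2 were above the floor on at most 1 of 24 arrays, and the ubiquitous forms on all 24. The striated muscle markers MYH7, MYH2, ACTC1, TNNI3 and CKM were above the floor in no group, and the 7 muscle markers summed to 640 to 740 on PMCA2, 553 to 646 on NHERF1 and 522 to 640 on HER2 knockdown arrays, against 1413 to 1658 on control arrays. Only the other 2 muscle markers were tested, so the sums say little about the rest. Of the tested muscle markers 2, 1 and 2 were lower than control and 0, 1 and 0 higher. Of all genes 33.1%, 30.9% and 31.8% were lower and 33.9%, 35.7% and 35.4% higher. Among the ubiquitous forms COX7A2 had log2 intensities of 12.96, 13.02 and 13.09 in PMCA2 knockdown cells, 12.98, 13.05 and 13.11 in NHERF1 knockdown cells, 12.91, 12.95 and 13.00 in HER2 knockdown cells, against 13.18, 13.23 and 13.34 in control cells. It was 1.16-fold, 1.14-fold and 1.22-fold lower than in control cells without overlap (limma adjusted p = 2.53e-05, 0.000118 and 3.07e-07). COX8A was 1.14-fold higher in PMCA2 knockdown cells (limma adjusted p = 0.000298), and COX6B1 1.11-fold lower (adjusted p = 0.00356), both with arrays that overlapped control. COX8A was 1.07-fold lower in NHERF1 knockdown cells (limma adjusted p = 0.0392), a call lost without any 1 of 7 arrays (NHERF1 knockdown replicates 1, 3, 4 and 6, and control replicates 4, 5 and 6) and on each chip alone. COX4I1 passed no test against control (log2 -0.034, -0.046 and -0.062), nor did COX6B1 in NHERF1 and HER2 or COX8A in HER2 knockdown cells. COXFA4, the former NDUFA4 and now counted with complex IV, had log2 differences of -0.039, -0.13 and -0.088 (limma adjusted p = 0.471, 0.0109 and 0.0904), and its isoform COXFA4L2 was above the floor on 2 arrays.

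Complex V couples the proton flow through the c ring to ATP synthesis in the F1 head. Of its 17 tested subunits 12, 7 and 6 were lower in PMCA2, NHERF1 and HER2 knockdown cells than in control cells and 1, 2 and 3 higher. The shares lower were 70.6%, 41.2% and 35.3%, against 33.1%, 30.9% and 31.8% of all genes, so that of the HER2 knockdown was near the background. The median log2 differences were -0.26, -0.12 and -0.064, and with the mean of a gene's probes that of the HER2 knockdown was -0.0046. The 5 subunits of the F1 head were lower for 5, 3 and 1 and higher for 0, 0 and 1, with medians of -0.27, -0.17 and -0.0046. ATP5F1B, the catalytic beta subunit, had log2 intensities of 13.77, 13.80 and 13.84 in PMCA2 knockdown cells, 13.99, 14.04 and 14.13 in NHERF1 knockdown cells, 13.91, 14.08 and 14.17 in HER2 knockdown cells, against 14.01, 14.07 and 14.15 in control cells. PMCA2 knockdown arrays lay below all others, at 82.9% of the control level (limma adjusted p = 2.28e-06), while the NHERF1 and HER2 knockdowns overlapped control (log2 -0.023 and -0.0046). ATP5F1B was added for its role after its values were seen.

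ATP5F1D and ATP5F1E, the delta and epsilon subunits at the foot of the head, differed in pattern. ATP5F1D had log2 intensities of 11.50, 11.50 and 11.59 in PMCA2 knockdown cells, 11.51, 11.64 and 11.76 in NHERF1 knockdown cells, 11.76, 11.88 and 11.99 in HER2 knockdown cells, against 11.84, 11.92 and 11.99 in control cells. It was 1.32-fold and 1.21-fold lower in PMCA2 and NHERF1 knockdown cells than in control cells without overlap (limma adjusted p = 4.2e-08 and 1.28e-05), and HER2 knockdown arrays overlapped control (log2 -0.042, adjusted p = 0.471). ATP5F1E had log2 intensities of 11.62, 11.70 and 11.81 in PMCA2 knockdown cells, 11.59, 11.67 and 11.81 in NHERF1 knockdown cells, 11.51, 11.70 and 11.80 in HER2 knockdown cells, against 11.94, 11.98 and 12.21 in control cells. All knockdown arrays lay below all control arrays, by log2 -0.31, -0.34 and -0.33 in the means (SE 0.053, limma adjusted p = 1.13e-05, 2.86e-06 and 3.78e-06).

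ATP5F1C, the gamma subunit that turns inside the head, had log2 intensities of 10.53, 10.56 and 10.67 in PMCA2 knockdown cells, 10.50, 10.64 and 10.70 in NHERF1 knockdown cells, 10.91, 11.03 and 11.17 in HER2 knockdown cells, against 10.72, 10.81 and 10.83 in control cells. HER2 knockdown arrays lay above all others and PMCA2 and NHERF1 knockdown arrays below control. It was 1.16-fold and 1.12-fold lower in PMCA2 and NHERF1 knockdown cells (limma adjusted p = 0.000137 and 0.00206) and 1.18-fold higher in HER2 knockdown cells (adjusted p = 4.26e-05) than in control cells.

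The peripheral stalk holds the head still against the rotor, and its subunits differed in direction. ATP5PF, coupling factor 6, had log2 intensities of 12.28, 12.37 and 12.45 in PMCA2 knockdown cells, 12.40, 12.55 and 12.59 in NHERF1 knockdown cells, 12.25, 12.33 and 12.43 in HER2 knockdown cells, against 12.82, 12.90 and 12.97 in control cells. All knockdown arrays lay below all control arrays, and the gene was 1.44-fold, 1.28-fold and 1.47-fold lower (log2 -0.53, -0.36 and -0.56, SE 0.046, limma adjusted p = 6.94e-11, 9.04e-08 and 2.18e-11). ATP5PB, subunit b, had log2 intensities of 12.39, 12.44 and 12.51 in PMCA2 knockdown cells, 12.35, 12.48 and 12.65 in NHERF1 knockdown cells, 12.61, 12.67 and 12.81 in HER2 knockdown cells, against 12.16, 12.23 and 12.26 in control cells. Every knockdown array lay above every control array. ATP5PB was higher in PMCA2, NHERF1 and HER2 knockdown cells than in control cells (log2 0.22, 0.26 and 0.46, SE 0.046, limma adjusted p = 0.00018, 1.45e-05 and 1.61e-09), and a further probe gave log2 0.44, 0.30 and 0.61.

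Of the small membrane subunits, ATP5MG, subunit g, had log2 intensities of 12.78, 12.87 and 12.94 in PMCA2 knockdown cells, 13.07, 13.14 and 13.17 in NHERF1 knockdown cells, 12.77, 12.89 and 12.97 in HER2 knockdown cells, against 13.20, 13.38 and 13.43 in control cells. It was 1.40-fold, 1.16-fold and 1.39-fold lower than in control cells without overlap (limma adjusted p = 2.16e-10, 0.000117 and 3.45e-10), but a further probe of ATP5MG gave log2 -0.12, -0.59 and 0.024, another order of the knockdowns. ATP5ME, subunit e, had log2 intensities of 12.24, 12.26 and 12.42 in PMCA2 knockdown cells, 12.52, 12.60 and 12.69 in NHERF1 knockdown cells, 12.22, 12.27 and 12.30 in HER2 knockdown cells, against 12.32, 12.37 and 12.39 in control cells. It was 1.17-fold higher in NHERF1 knockdown cells (limma adjusted p = 2.35e-05) and 1.07-fold lower in HER2 knockdown cells (adjusted p = 0.0365) than in control cells. The further probe of ATP5ME had the same sign in NHERF1 knockdown cells (log2 0.32) and the opposite sign in HER2 knockdown cells (log2 0.12). The HER2 call of ATP5ME was lost without any 1 of 7 arrays (HER2 knockdown replicates 1, 2 and 3, and control replicates 1, 4, 5 and 6) and on each chip alone, and the mean of its probes gave log2 0.011.

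The c ring is encoded by 3 genes, ATP5MC1, ATP5MC2 and ATP5MC3, which make the same mature protein from different precursors. ATP5MC2 had log2 intensities of 11.26, 11.41 and 11.49 in PMCA2 knockdown cells, 11.40, 11.59 and 11.63 in NHERF1 knockdown cells, 11.80, 11.95 and 12.06 in HER2 knockdown cells, against 11.43, 11.51 and 11.69 in control cells. HER2 knockdown arrays lay above all others, and ATP5MC2 was 1.32-fold higher in HER2 knockdown cells than in control cells (log2 0.40 with SE 0.057, limma adjusted p = 6.18e-07), with log2 0.44 for a further probe. In PMCA2 knockdown cells it was lower, at 90.8% of control (limma adjusted p = 0.035), a call lost without any 1 of 6 arrays (PMCA2 knockdown replicates 1, 4 and 6, and control replicates 4, 5 and 6), on chip 1 alone, with the mean of its probes and with only the 2 groups compared. ATP5MC1 and ATP5MC3 passed no test against control, though ATP5MC3 did in NHERF1 knockdown cells without control replicate 2 or 6 (log2 -0.16 and -0.15). A further probe of ATP5MC1 gave log2 0.20, 0.33 and 0.28 where the probe used gave -0.072, -0.089 and 0.03.

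Further probes that were above the floor on at least 6 arrays were present for 19 members, 22 probes in all. Of the members called against control, UQCRB in PMCA2 and NHERF1 knockdown cells and ATP5ME, ATP5MG and UQCRB in HER2 knockdown cells had a further probe of the opposite sign, for UQCRB a probe near the floor. UQCR10 was the only member with a further probe over 1.5-fold apart from the probe used against control, in PMCA2 and in HER2 knockdown cells. Between NHERF1 and HER2 knockdown cells, the used and further probes of ATP5MG differed in sign, at log2 0.26 and -0.61. Between PMCA2 and NHERF1 knockdown cells ATP5F1D, ATP5ME and ATP5MG did, and ATP5MG was over 1.5-fold apart, at log2 -0.27 and 0.47.

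**Figure D3:**
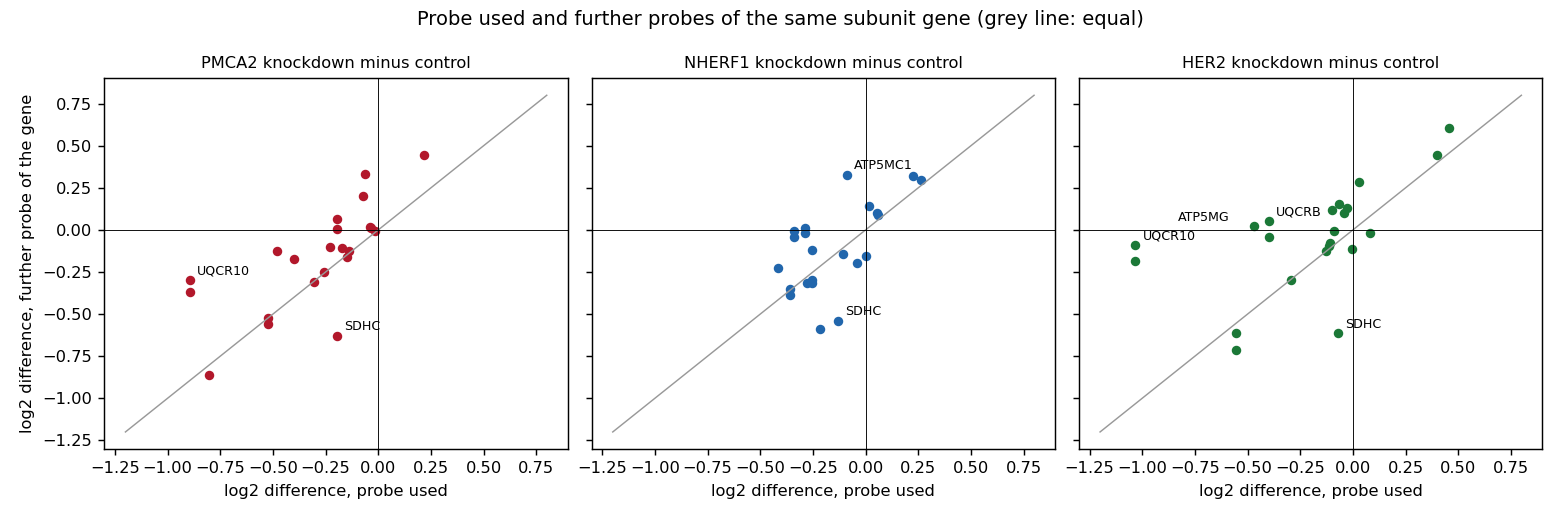
Log2 difference between a knockdown and control for the probe used (horizontal axes) and for each of the 22 further probes of the same genes (vertical axes), with the grey line where both are equal. UQCR10 lies far to the left of the line in the PMCA2 and HER2 panels, and SDHC below it in all 3.

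Between the knockdowns the members as a whole stood closer to the other genes. In PMCA2 against HER2 knockdown cells 25 of 73 members (34.2%) were lower and 11 (15.1%) higher (limma, adjusted p under 0.05), where 28.9% of all genes were lower and 26.5% higher, with a median log2 difference of -0.053 for the members and -0.014 for all genes. In NHERF1 against HER2 knockdown cells 18 (24.7%) were lower and 15 (20.5%) higher, against 25.4% and 26.8% of all genes, with medians of -0.010 and 0.0064. In PMCA2 against NHERF1 knockdown cells 25 (34.2%) were lower and 9 (12.3%) higher, against 30.0% and 27.3%, with medians of -0.045 and -0.013 (-0.018 for the members without the filter on dim probes). The shares called lower were thus near the background in all 3 pairs, and the shares called higher lay below it. In either direction 36, 33 and 34 members were called in the 3 pairs, where 55.4%, 52.3% and 57.3% of all genes were. Of the 6 PMCA2 knockdown arrays, all lay below all HER2 knockdown arrays for 15 members (17.5% of all genes) and above them for 6 (16.7%). All NHERF1 knockdown arrays lay below all HER2 knockdown arrays for 10 members (15.7% of all genes) and above them for 9 (16.7%), and all PMCA2 below all NHERF1 knockdown arrays for 16 (20.3%) and above them for 5 (17.8%). A change of at least 1.5-fold was met by 1 lower and no higher member in PMCA2 against HER2 knockdown cells (5.74% and 7.28% of all genes), by 1 lower and 1 higher in NHERF1 against HER2 knockdown cells (5.02% and 5.40%), and by none in PMCA2 against NHERF1 knockdown cells (6.36% lower and 7.26% higher).

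The complexes differed in these contrasts. In PMCA2 against HER2 knockdown cells 8 of 17 subunits of complex V (47.1%) were lower and none higher, with 4 of the 5 F1 head subunits lower. In complex IV 1 of 11 (9.09%) was lower and 3 (27.3%) higher. Of all genes 28.9% were lower and 26.5% higher in that pair, so the share higher in complex IV was near the background. In PMCA2 against NHERF1 knockdown cells 9 of 17 subunits of complex V and 4 of 8 of complex III were lower and none higher. The shares of all genes there were 30.0% lower and 27.3% higher. In NHERF1 against HER2 knockdown cells no subunit of complexes II and III was lower, and UQCR10 alone was higher. The shares of all genes were 25.4% lower and 26.8% higher.

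NDUFA9 and SDHA set the PMCA2 knockdown apart. Against HER2 knockdown cells NDUFA9 was 1.60-fold and SDHA 1.43-fold lower in PMCA2 knockdown cells (log2 -0.68 and -0.51, SE 0.049 and 0.048, limma adjusted p = 4.74e-12 and 5.74e-10). SDHA was 1.46-fold lower in PMCA2 than in NHERF1 knockdown cells (adjusted p = 1.54e-10). ATP5F1C and ATP5MC2 were 1.37-fold and 1.45-fold lower in PMCA2 than in HER2 knockdown cells (limma adjusted p = 2.21e-09 and 6.96e-09), and their arrays did not overlap, as the values above show. NDUFA3 was 1.34-fold higher and UQCR10 1.47-fold lower in PMCA2 than in NHERF1 knockdown cells (limma adjusted p = 1.54e-09 and 1.38e-08).

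COX7A2L set the NHERF1 knockdown apart. It was 1.63-fold lower in NHERF1 than in HER2 knockdown cells (log2 -0.70 with SE 0.043, limma adjusted p = 1.68e-13), and 1.46-fold higher in PMCA2 than in NHERF1 knockdown cells (adjusted p = 2.01e-11). UQCR10 was 1.62-fold higher in NHERF1 than in HER2 knockdown cells (limma adjusted p = 2.94e-10), with log2 0.14 and 0.082 for its further probes against 0.69 for the probe used. ATP5ME was 1.25-fold higher and ATP5F1C 1.32-fold lower in NHERF1 than in HER2 knockdown cells (limma adjusted p = 1.91e-07 and 2.34e-08). All members called in the 3 pairs had the same sign on both chips, again with calls made on both chips together.

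**Figure D4:**
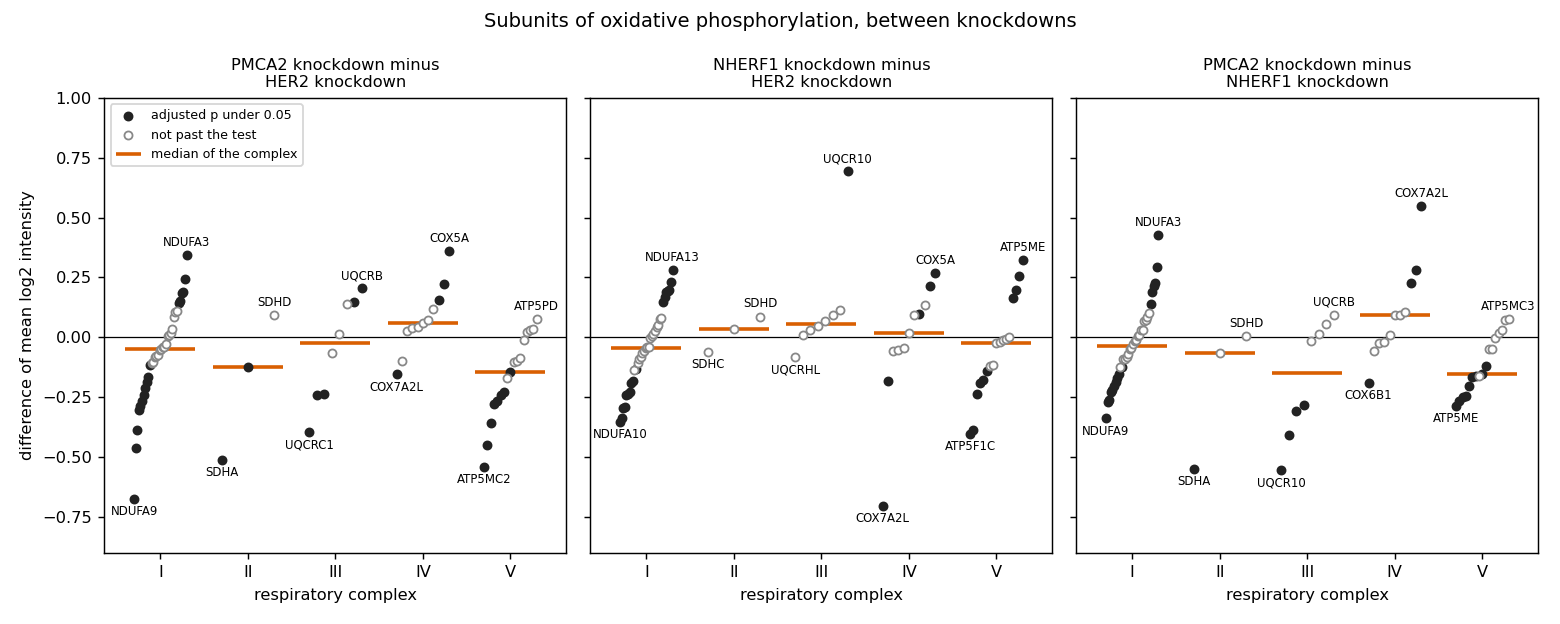
Each point is 1 tested subunit gene by complex (horizontal axis) and by the difference of mean log2 intensity between 2 knockdowns (vertical axis, n = 6 arrays each), with filled points past the limma test and orange bars at the median of the complex. The medians of the complexes lie between -0.15 and 0.093, and NDUFA9, COX7A2L and UQCR10 stand furthest from it.

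Genes around the respiratory chain were read from lists of citric acid cycle enzymes, electron carriers and coenzyme Q synthesis, assembly factors and regulators of mitochondrial biogenesis. Their counts stand beside 33.1%, 30.9% and 31.8% of all genes lower and 33.9%, 35.7% and 35.4% higher in PMCA2, NHERF1 and HER2 knockdown cells than in control cells. The citric acid cycle supplies NADH and succinate, and 8, 9 and 8 of its 11 tested enzymes were lower and 1, 0 and 0 higher in PMCA2, NHERF1 and HER2 knockdown cells than in control cells, with median log2 differences of -0.38, -0.25 and -0.34. SUCLG2, a subunit of succinyl-CoA ligase, was 2.20-fold, 1.53-fold and 1.40-fold lower (limma adjusted p = 8.88e-17, 5.95e-11 and 5.03e-09). IDH3A, the catalytic subunit of the NAD-dependent isocitrate dehydrogenase, was 1.92-fold, 1.70-fold and 2.08-fold lower (limma adjusted p = 3.51e-14, 3.49e-12 and 2.89e-15). DLST, of the oxoglutarate dehydrogenase complex, stood at 57.2%, 66.9% and 75.6% of its control level (limma adjusted p = 5.89e-15, 7.29e-12 and 8.89e-09).

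Of 15 genes for electron carriers and coenzyme Q synthesis, 9, 8 and 7 were lower and 2, 2 and 3 higher than control in PMCA2, NHERF1 and HER2 knockdown cells, with medians of -0.19, -0.21 and -0.14. The genes of coenzyme Q synthesis split. COQ6, a ring hydroxylase, was 1.69-fold, 1.68-fold and 1.80-fold lower (limma adjusted p = 9.1e-14, 1.11e-13 and 7.62e-15). COQ2, which attaches the side chain, was 1.28-fold, 1.66-fold and 1.47-fold higher (limma adjusted p = 1.63e-08, 6.4e-15 and 2.53e-12). COQ3, a methyltransferase, was lower in PMCA2 and HER2 knockdown cells, at 56.5% and 83.4% of control (limma adjusted p = 1.33e-15 and 5.63e-06), and the NHERF1 knockdown did not pass (log2 -0.038, adjusted p = 0.456).

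Assembly factors, which help build the complexes without staying in them, were mixed. For complex I, 8, 3 and 5 of 14 were lower and 3, 6 and 7 higher in PMCA2, NHERF1 and HER2 knockdown cells than in control cells, with medians of -0.15, 0.094 and 0.14. NDUFAF1 was lower in all 3, at 66.0%, 66.7% and 55.8% of control (limma adjusted p = 2.26e-10, 3.93e-10 and 1.96e-13). NDUFAF5 was 1.43-fold, 1.12-fold and 1.86-fold lower (limma adjusted p = 3.83e-10, 0.00404 and 3.45e-15). NDUFAF4 was 1.70-fold and 1.53-fold lower in PMCA2 and HER2 knockdown cells (limma adjusted p = 2.1e-10 and 1.73e-08), where a further probe gave smaller log2 differences of -0.40 and -0.11.

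For complexes II to V, 16, 14 and 14 of 32 assembly factors were lower and 4, 10 and 9 higher, with medians of -0.15, -0.078 and -0.025. COX20, a chaperone of complex IV assembly, was 2.07-fold, 1.77-fold and 1.58-fold lower in PMCA2, NHERF1 and HER2 knockdown cells than in control cells (limma adjusted p = 1.88e-14, 3.34e-12 and 2.73e-10). SCO2, which delivers copper to complex IV, was 1.77-fold, 1.41-fold and 1.58-fold lower (limma adjusted p = 1.96e-13, 6.32e-09 and 1.82e-11). UQCC1, of complex III assembly, stood at 54.8%, 75.6% and 63.5% of control (limma adjusted p = 3.11e-15, 2.15e-08 and 1.48e-12).

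Regulators of mitochondrial biogenesis did not share a direction. Of 11 tested, 5, 4 and 3 were lower and 4, 4 and 3 higher, with medians of -0.099, 0.034 and -0.014. TFAM, which packages and transcribes mitochondrial DNA, was 1.27-fold, 1.59-fold and 1.58-fold higher in PMCA2, NHERF1 and HER2 knockdown cells than in control cells (limma adjusted p = 1.59e-08, 2.89e-14 and 3.65e-14). PPRC1, a coactivator related to PGC-1, was 1.12-fold, 1.49-fold and 1.22-fold higher (limma adjusted p = 0.00129, 2.16e-12 and 7.8e-07). TFB2M, a mitochondrial transcription factor, was 1.56-fold lower in PMCA2 knockdown cells (limma adjusted p = 1.05e-11), and the NHERF1 and HER2 knockdowns did not pass (log2 0.034 and -0.014).

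**Figure D5:**
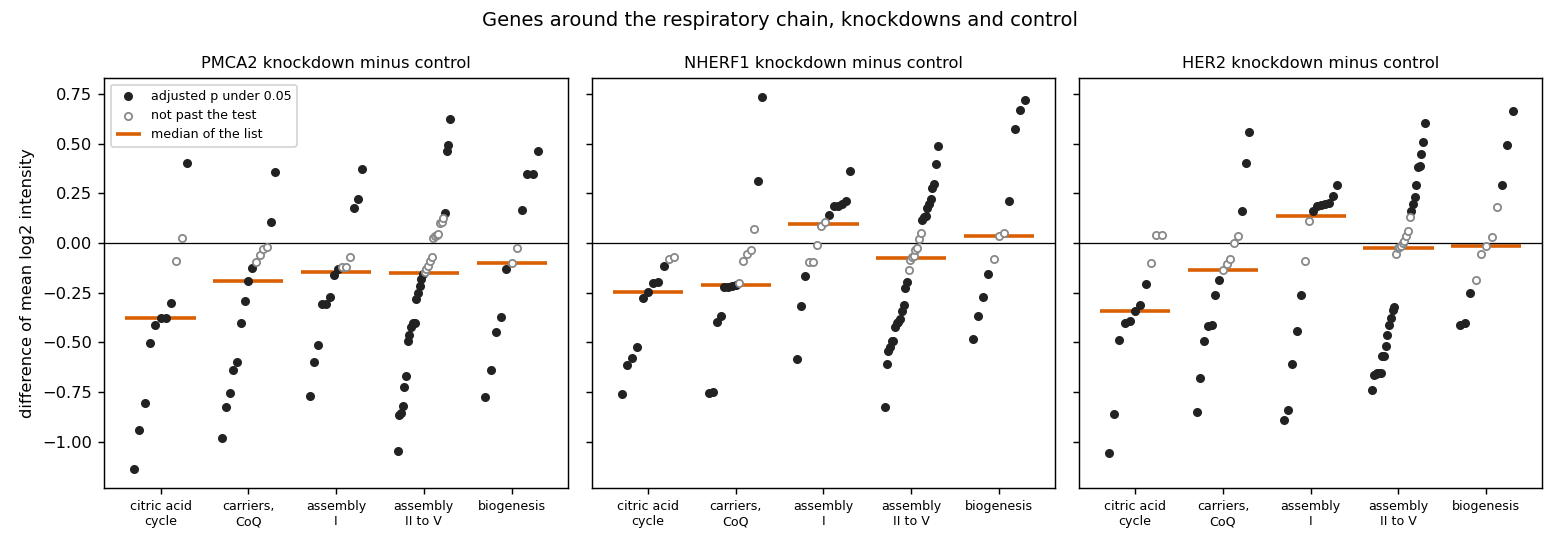
Each point is 1 gene of a list (horizontal axis) at its difference of mean log2 intensity between a knockdown and control (vertical axis, n = 6 arrays each), with filled points past the limma test and orange bars at the list's median. The citric acid cycle list has the lowest median in each panel, at -0.38, -0.25 and -0.34, and assembly factors and biogenesis regulators spread to both sides of 0.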

How the data were processed

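RNA of 24 SKBR3 samples, 6 in each of the 4 groups given by the labels, was read on Illumina arrays. The deposited values are probe intensities on a linear scale that the authors had normalized, since once sorted they nearly coincide between arrays (largest spread 0.406%). The background was still in them (smallest value 81.6, array medians near 103), and the software is not given in the sources used here. A second table with 48 columns was not used, since its column names match no label.

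Probes were named through the platform annotation: 30113 of 47323 have 1 symbol, 8 several and 17202 none, and 30074 matched the RefSeq gene table by identifier. Background was corrected by normexp against 433 probes of olfactory receptor genes, which stood in for negative controls (offset 16), followed by quantile normalization and log2. The design had foreseen these steps. The floor was their 95th percentile, an intensity of 106, and a probe was kept where above it on at least 6 arrays (22585 probes, 12444 genes). Group means were fitted over all 24 arrays with limma 3.58.1 in R 4.3.3 with Benjamini-Hochberg adjustment, and calls use an adjusted p under 0.05. The test was checked on simulated data with independent noise and few changed genes. The data here differ in both respects or may do so, so that check does not vouch for the calls. Folds are ratios of corrected intensities and depend on the offset for dim genes.

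The members, gene lists and tests were chosen with earlier results of these data known. Named are the 3 members of complexes I, III, IV and V with the smallest p against control and all of complex II, every member changed at least 1.5-fold, the 4 with the smallest p in each pair of knockdowns, the isoform groups, and 3 genes of each related list, with ATP5F1B, UQCRH and UQCRHL added. Alternatives are given in the closing section.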

Additional observations from a re-analysis of the deposited data

Results flagged for a closer look

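In 8 of 148 sets of 6 arrays examined (the 31 named members and the median shifts of all members and of each complex, by group), 1 array stood apart from the other 5 by Dixon's gap ratio. Chance alone flags about 1 in 20 such sets. For SDHA, HER2 knockdown replicate 3 read log2 10.68, above the other 5 at 10.39 to 10.46 and below every control array. For UQCR10, HER2 knockdown replicate 1 read 8.55, where the others read 8.45 to 8.48. UQCRC2 read 8.71 on PMCA2 knockdown replicate 3, with the others at 8.91 to 9.03. COX6A1 read 11.24 on control replicate 2, with the others at 11.40 to 11.43. ATP5F1D read 11.59 on PMCA2 knockdown replicate 6, with the others at 11.50 to 11.53, and COX5B read 13.00 on NHERF1 knockdown replicate 5, with the others at 12.87 to 12.91. The median shift of all members from control was -0.24 on 1 NHERF1 knockdown array, with the others at -0.17 to -0.13, and the median shift of complex I was -0.21 on 1 HER2 knockdown array, with the others at -0.12 to -0.10. Leaving out any 1 array changed no call against control of SDHA, UQCR10, COX6A1, ATP5F1D or COX5B. UQCRC2 lost its HER2 knockdown call without HER2 knockdown replicate 5 and gained one in NHERF1 knockdown cells without NHERF1 knockdown replicate 1.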

How the results depend on the processing

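The alternatives were no background correction, an offset of 50, centring on the array median in place of the quantile step, no filter on dim probes, probes above the floor on all 24 arrays, the mean of a gene's probes, the chip as a block, each chip alone, the replicate number as a block, limma's trend and robust settings, only the 2 groups compared, and each array left out in turn. Of 2592 values of named members, 2502 kept the sign and the side of the threshold, 58 lost the call, 5 gained it and 27 changed sign. Among calls, only that of ATP5ME in HER2 knockdown cells changed sign, at log2 0.011 with the mean of its probes. That mean also gave ATP5ME 0.13 in PMCA2 (limma adjusted p = 0.00429), ATP5MC1 0.066 in PMCA2 and 0.12 in NHERF1, and ATP5F1D 0.031 in HER2 knockdown cells. The other sign changes were of small differences without a call. Chip 1 alone gave COX8A 0.012 and ATP5F1D 0.034 in HER2 knockdown cells. Chip 2 alone gave ATP5MC2 -0.049 in NHERF1, and SDHD 0.0076, NDUFA9 -0.028, COX6B1 0.018, ATP5MC3 -0.051 and ATP5F1B 0.043 in HER2 knockdown cells. With 1 array left out, ATP5MC2 in NHERF1 knockdown cells ranged over -0.0058 to 0.048, and in HER2 knockdown cells SDHD over -0.053 to 0.041, NDUFA9 over -0.014 to 0.030 and ATP5F1B over -0.025 to 0.027. Beside those given with their genes, calls were lost on a chip alone for COX6B1, COX8A, ATP5F1C, ATP5PB and UQCRB in PMCA2, SDHC, UQCRC1, ATP5F1C, ATP5MG and COX5A in NHERF1, and UQCRC1 and UQCRC2 in HER2 knockdown cells. With the mean of a gene's probes UQCRB lost its PMCA2 and NHERF1 calls, with dim probes in the mean, and SDHC and ATP5MC1 gained calls in HER2 knockdown cells. The number of members called lower ranged over 39 to 51 in PMCA2, 29 to 43 in NHERF1 and 26 to 39 in HER2 knockdown cells. With 1 array left out it ranged over 44 to 49, 38 to 42 and 32 to 38. The number higher in PMCA2 knockdown cells was 2 on chip 1 alone and 2 on chip 2 alone, and that in NHERF1 knockdown cells 5 without background correction. Each chip alone holds fewer arrays.

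Medians that moved by more than the spread between arrays were these. Without background correction they were -0.19 for all members, -0.19 for complex I and -0.21 for complex V in PMCA2 knockdown cells, -0.12 for complex I in NHERF1 knockdown cells, and -0.025 for all members in PMCA2 against NHERF1 knockdown cells. With an offset of 50, complex I was at -0.22 in PMCA2 and -0.16 in NHERF1 knockdown cells. Centred arrays gave -0.24 for all members and -0.27 for complex I in PMCA2 knockdown cells. Without a filter complex I was at -0.14 in NHERF1 knockdown cells, complex IV at -0.069, -0.13 and -0.064 in PMCA2, NHERF1 and HER2 knockdown cells, and all members at -0.018 in PMCA2 against NHERF1 knockdown cells. With probes above the floor on all arrays, complex I was at -0.23 in NHERF1 knockdown cells. The mean of a gene's probes gave -0.41 for complex II in PMCA2 knockdown cells, -0.30, -0.15 and -0.0046 for complexes II, III and V in HER2 knockdown cells, and -0.025 for all members in PMCA2 against NHERF1 knockdown cells. Chip 1 alone gave complex I -0.21 in PMCA2 and -0.15 in NHERF1 knockdown cells, -0.027 for all members and 14 lower members in PMCA2 against NHERF1 knockdown cells, and 8 higher members in NHERF1 against HER2 knockdown cells. Chip 2 alone gave complex III -0.24 in HER2 knockdown cells and 6 higher members in PMCA2 against HER2 knockdown cells. With 1 array left out, the median in PMCA2 knockdown cells ranged over -0.26 to -0.23 for complex I and -0.21 to -0.14 for complex IV, and that of all members in PMCA2 against NHERF1 knockdown cells over -0.045 to -0.029. The cause of these shifts was not tested.

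The labels number the replicates 1 to 6 in each group, and deviations of same-numbered arrays were at most weakly correlated (-0.06 to 0.11). Of the 24 arrays, 9 correlated best with their own number. That is more than an even spread over the 6 numbers would give, so a weak pairing may be present. With the replicate number as a block, 49, 40 and 36 members were lower and 5, 3 and 7 higher, the same counts as without it. Nothing in the labels says that replicates came from separate cultures, so p-values measure the spread between these samples, which may be technical. Dim probes such as that of NDUFS1 limit the size of a fold, and single probes that of UQCR10, UQCRB and ATP5MG.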
